A study of Mus musculus with 15 samples.

Results

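The genes described are those for which both Smarcd1 hairpin lines of 6DT1, a mouse mammary carcinoma cell line, lay apart from every other line of the experiment. Levels were summed over the listed transcripts of each gene and are given in CPM, read counts scaled to the size of each library. A gene was taken when its highest line mean was at least 5 CPM, when all 6 libraries of the hairpin lines KD4 and KD6 lay above, or all below, the 9 libraries of the lines EV, OE and shScr, and when the KD4 and KD6 means each differed by at least 15% from each of the 3 other line means, taking the smaller of the 2 means as the base. Of 13142 genes measured, 66 met this rule, 40 above the other lines and 26 below them. The members were thus chosen by the levels of the hairpin lines against the other lines, so those differences are a description here and were not tested. Comparisons that the rule did not use were tested, namely KD6 with KD4, OE with EV, and EV with shScr.

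The 5 lines had 3 libraries each, and all were 6DT1 cells grown as a monolayer and transduced with a lentiviral vector. EV carried the empty expression vector and OE the same kind of vector with a Myc-tagged Smarcd1 coding sequence, and both were kept in blasticidin. KD4 and KD6 each carried 1 hairpin against Smarcd1 and shScr a scrambled hairpin, and these 3 were kept in puromycin. Each line is a selected cell population, so line and construct cannot be told apart, and EV and shScr differ from each other in vector and drug. RNA was taken 24 h after plating at 70% confluence, with each replicate a passage of its own from another day. Of 9 epithelial marker genes looked for, Krt8 and Krt18, the keratins of simple epithelium, were measured, with a summed level of 640.1 to 949 CPM across the libraries. Of the markers of fibroblasts, immune, endothelial and myoepithelial cells 1 each was measured and of adipocytes none, and no marker belonged to the set. Cd68, the immune marker, had 60.5 to 62.8 CPM in EV, 46.5 to 68.1 in OE and 32.3 to 38.8 in shScr. In KD4 it had 26.7 to 34.4 and in KD6 29.1 to 49.3. Pdgfra, the fibroblast marker, had 4.81 to 7.59 CPM in KD4 and 1.55 to 3.99 in the other lines. Kdr (endothelial) and Acta2 (myoepithelial) had at most 1.81 and 2.04 CPM. Mitochondrially encoded genes took 5.93% to 6.93% of the listed CPM in EV and OE, 4.66% to 5.90% in shScr and 4.69% to 5.70% in the hairpin lines, and the part of this in the results was not tested. By principal components EV replicate 1 was the library farthest out, and all 66 genes still met the rule without it. Leaving a library out can only loosen the separation of libraries, so this does not show that the library had no influence.

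Smarcd1 encodes a subunit of the BAF complexes, the mammalian SWI/SNF family, which use ATP to slide or evict nucleosomes and so change the access of transcription factors to promoters and enhancers. Smarcd proteins link the catalytic core of the complex to its other modules and to transcription factors. Hairpin RNAs lower a messenger through the RNA interference pathway, and a second hairpin of another sequence is commonly used because each hairpin can also act on messengers it was not designed for. The question here is which genes take a different level in both hairpin lines than in every line without a Smarcd1 hairpin.

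Smarcd1 itself (ENSMUSG00000023018) was not among the 66 genes. Its level was 29.4 ± 2.74 CPM (SD, n = 3 as for all means below) in EV, 37.3 ± 0.962 in OE, 15.3 ± 1.55 in shScr, 8.10 ± 0.795 in KD4 and 13.2 ± 1.05 in KD6. KD4 lay below the other lines in all 3 libraries, while the highest KD6 library, at 14.3 CPM, overlapped the lowest shScr library, at 14.1. KD6 was higher than KD4 by a log2 difference of 0.64 (adjusted p = 0.000989, limma with Benjamini-Hochberg adjustment over 13142 genes, as for all tests below). EV was higher than shScr by a log2 difference of 0.90 (adjusted p = 7.48e-05). OE exceeded EV by a log2 difference of 0.34 in these transcript sums and did not pass the test (adjusted p = 0.769), whereas the authors' gene-level table gave 65.7 ± 4.40 CPM in OE and 29.6 ± 2.37 in EV. The rule asked KD6 to leave shScr in every library, although the Smarcd1 levels of these lines overlapped.

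The set was a small share of the genes that leaned the same way. Both hairpin means lay above the 3 other means in 1776 genes (13.5% of those tested) and below them in 1486 (11.3%). All 6 libraries separated from the other 9 in 183 genes, 102 above and 81 below, of which 16 were under the minimum level and 101 under the minimum fold. The members made up 0.502% of all genes, 0.304% above and 0.198% below. The margin, the smallest of the 6 fold differences between a hairpin mean and another line's mean, ranged from 1.152 to 1.90 with a median of 1.23. It reached 1.3-fold in 23 members and 1.5-fold in 8, and 2-fold in none. When each library was left out in turn, 37 of the 66 met the rule in all 15 cases. A library left out cannot break the separation, so members were lost only through changed line means. Just inside the limit were Zfp518b at 1.152-fold, Mybl1 at 1.155-fold and Cfl2 at 1.154-fold, and just outside it, with all libraries separated, were Atg2b at 1.148-fold below and Rcn1 and Usp25 at 1.146-fold and 1.144-fold above.

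**Figure D1:**
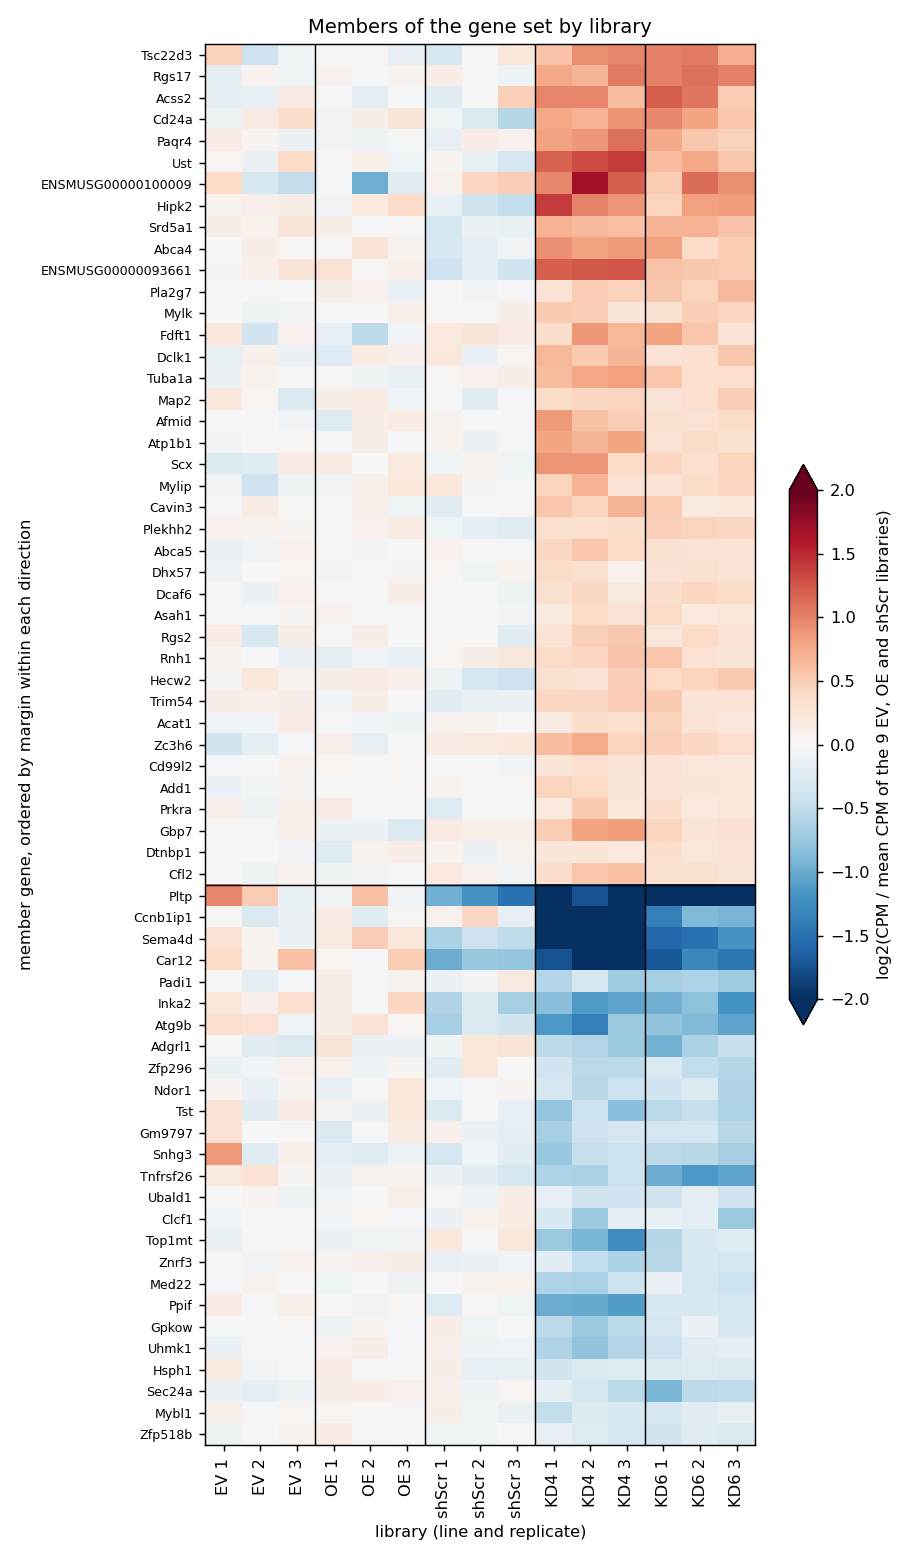
Each of the 65 rows is 1 of the 66 genes and each column 1 of the 15 libraries, with colour giving log2 of the CPM over the mean of the 9 EV, OE and shScr libraries (scale limited to -2 to 2). By the rule, the 6 hairpin columns on the right are mostly red, some faintly, in the 39 upper rows and blue in the 26 lower rows, and several lower rows such as Pltp, Sema4d and Car12 are also pale blue in shScr.

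To show the sequence around the start of genes from both directions, the 250 bases before the start site are given for Rgs17 and Acss2, among the 3 members above with the largest margins, and for Pltp and Car12, among the 4 below. They are from RefSeq on GRCm38.p6, which held an entry for 50 of the 66 members (75.8%), too few to compare motif shares of the set with other genes. Capitals mark matches, on either strand, to the CCAAT box (CCAAT), the GC box (GGGCGG) and the AP-1 site (TGANTCA), and none of the 4 held the sterol regulatory element TCACNCCAC. In windows of the same length these letters were found in 41.0%, 66.4%, 5.40% and 1.13% of 8573 measured genes, in that order. Overlaps between motifs were not removed.
Rgs17 (chr10:5922401-5922650, minus strand): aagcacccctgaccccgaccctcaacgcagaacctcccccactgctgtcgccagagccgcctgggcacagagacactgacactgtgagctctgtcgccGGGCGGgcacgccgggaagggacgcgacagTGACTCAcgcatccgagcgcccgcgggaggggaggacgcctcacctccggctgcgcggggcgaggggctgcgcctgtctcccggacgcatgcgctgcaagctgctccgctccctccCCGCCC
Acss2 (chr2:155517793-155518042, plus strand): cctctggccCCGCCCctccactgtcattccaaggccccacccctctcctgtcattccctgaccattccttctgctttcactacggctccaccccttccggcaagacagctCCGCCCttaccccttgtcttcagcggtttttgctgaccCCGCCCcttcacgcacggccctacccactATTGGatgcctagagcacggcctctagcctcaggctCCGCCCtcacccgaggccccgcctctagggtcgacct
Pltp (chr2:164857709-164857958, minus strand): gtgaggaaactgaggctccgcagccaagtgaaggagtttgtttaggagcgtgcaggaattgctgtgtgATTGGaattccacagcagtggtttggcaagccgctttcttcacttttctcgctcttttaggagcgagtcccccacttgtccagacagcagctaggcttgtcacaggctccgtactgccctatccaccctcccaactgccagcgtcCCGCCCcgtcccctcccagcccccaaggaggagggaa
Car12 (chr9:66713436-66713685, plus strand): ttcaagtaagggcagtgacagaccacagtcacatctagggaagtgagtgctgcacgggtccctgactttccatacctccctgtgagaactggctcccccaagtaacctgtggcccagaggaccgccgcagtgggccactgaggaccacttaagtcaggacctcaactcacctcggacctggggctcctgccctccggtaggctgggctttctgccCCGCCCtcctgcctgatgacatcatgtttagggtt
Rgs17 held 2 GC boxes and 1 AP-1 site, Acss2 1 CCAAT box and 4 GC boxes, Pltp 1 CCAAT box and 1 GC box, and Car12 1 GC box. A match is a run of letters and not a bound site.

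Tsc22d3 and Rgs17, both regulators of signalling, had the largest margins among the genes above. Tsc22d3, the glucocorticoid-induced leucine zipper protein, measured 27.1, 14.8 and 18.6 CPM in EV, 20.01, 19.9 and 17.6 in OE, 15.7, 20.1 and 22.98 in shScr, 29.2, 37.4 and 38.9 in KD4, and 39.4, 40.3 and 32.5 in KD6. The hairpin libraries began at 29.2 CPM, just over the highest other library, EV replicate 1 at 27.1, and the line means gave 1.74-fold for KD4 and 1.85-fold for KD6 over EV. The other 3 means of Tsc22d3 were close together, at 20.2, 19.2 and 19.6 CPM. Rgs17, which speeds up GTP hydrolysis by G protein alpha subunits, measured 3.64, 4.36 and 3.87 CPM in EV, 4.38, 4.11 and 4.35 in OE, 4.51, 4.08 and 3.86 in shScr, 7.06, 6.62 and 8.44 in KD4, and 8.28, 8.88 and 8.32 in KD6. Its 9 other libraries spanned only 3.64 to 4.51 CPM and its hairpin libraries 6.62 to 8.88, and its KD6 mean was 2.05-fold and its KD4 mean 1.78-fold that of shScr. Hipk2, a nuclear serine/threonine kinase, measured 41.5, 42.3 and 43.1 CPM in EV, 37.7, 44.9 and 51.5 in OE, 35.3, 29.9 and 27.8 in shScr, 104, 78.1 and 72.9 in KD4, and 53.4, 69.4 and 70.2 in KD6. KD4 replicate 1 was the highest library of Hipk2 and shScr the lowest line, and KD4 and KD6 were 1.90-fold and 1.44-fold the OE mean.

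Enzymes of lipid and steroid metabolism also lay above. Acss2, which makes acetyl-CoA from acetate in the nucleus and cytosol, measured 7.92, 8.28 and 10.2 CPM in EV, 8.92, 8.04 and 8.86 in OE, 7.90, 9.15 and 12.7 in shScr, 17.9, 17.9 and 13.99 in KD4, and 21.01, 19.2 and 13.02 in KD6. The highest other library, shScr replicate 3 at 12.7 CPM, lay just under the lowest hairpin library, KD6 replicate 3 at 13.02. Fdft1, squalene synthase, the first committed enzyme of sterol synthesis, measured 38.1, 24.9 and 34.5 CPM in EV, 28.95, 22.5 and 31.2 in OE, 37.3, 38.4 and 36.2 in shScr, 41.4, 59.5 and 51.5 in KD4, and 56.3, 47.7 and 38.6 in KD6. Its margin was 1.27-fold against shScr, and its hairpin libraries were spread from 38.6 to 59.5 CPM. Mylip, a ubiquitin ligase that binds the myosin regulatory light chain, was above as well and measured 9.77, 7.68 and 9.56 CPM in EV, 9.74, 11.02 and 11.9 in OE, 11.9, 10.6 and 10.1 in shScr, 13.996, 16.6 and 12.5 in KD4, and 12.5, 13.3 and 13.7 in KD6. Srd5a1, steroid 5-alpha-reductase, had 3.78 ± 0.219 CPM in EV, 3.50 ± 0.179 in OE, 2.96 ± 0.246 in shScr, 5.37 ± 0.170 in KD4 and 5.35 ± 0.268 in KD6. Pla2g7, the secreted enzyme that cleaves platelet-activating factor, had 15.2 ± 0.299 CPM in EV, 15.5 ± 1.44 in OE, 14.99 ± 0.293 in shScr, 20.3 ± 1.68 in KD4 and 22.2 ± 1.65 in KD6.

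Further members above act at the membrane, in the matrix or in the cytoskeleton, and Gbp7 is given along with them. Cd24a, a small glycosylated surface protein of mammary epithelium, measured 5.10, 6.10 and 6.92 CPM in EV, 5.24, 5.94 and 6.48 in OE, 5.12, 4.46 and 3.69 in shScr, 9.29, 8.84 and 10.2 in KD4, and 10.6, 9.38 and 7.95 in KD6. Ust, which adds sulfate to the uronic acids of chondroitin and dermatan chains, measured 6.07, 5.48 and 7.71 CPM in EV, 6.06, 6.35 and 5.62 in OE, 6.17, 5.39 and 4.71 in shScr, 13.5, 14.7 and 15.8 in KD4, and 9.17, 10.2 and 8.76 in KD6. The 3 KD4 libraries of Ust lay above all 3 of KD6. Atp1b1, the beta subunit of the sodium-potassium pump, had 15.4 ± 0.524 CPM in EV, 15.7 ± 0.864 in OE, 15.1 ± 0.942 in shScr, 25.96 ± 1.17 in KD4 and 19.2 ± 0.621 in KD6. Abca4, a lipid transporter known from the retina, had 7.31 ± 0.347 CPM in EV, 7.65 ± 0.657 in OE, 6.18 ± 0.584 in shScr, 12.8 ± 0.487 in KD4 and 10.5 ± 1.61 in KD6. Paqr4, a membrane protein of the progestin and adipoQ receptor family, had 3.66 ± 0.364 CPM in EV, 3.41 ± 0.099 in OE, 3.62 ± 0.376 in shScr, 6.79 ± 0.724 in KD4 and 5.36 ± 0.570 in KD6. Mylk, the kinase of the myosin light chain, had 30.9 ± 1.26 CPM in EV, 32.7 ± 1.64 in OE, 33.1 ± 1.65 in shScr, 43.3 ± 4.36 in KD4 and 42.7 ± 2.83 in KD6. Add1, alpha-adducin, which caps actin at the membrane skeleton, had 95.1 ± 5.65 CPM in EV, 98.4 ± 2.01 in OE, 99.4 ± 3.06 in shScr, 126 ± 8.87 in KD4 and 116 ± 1.91 in KD6. Trim54, a muscle ubiquitin ligase that binds microtubules, had 24.8 ± 0.343 CPM in EV, 23.2 ± 1.57 in OE, 20.6 ± 0.787 in shScr, 31.3 ± 1.20 in KD4 and 29.3 ± 3.21 in KD6. Gbp7, a guanylate-binding protein, had 22.8 ± 0.967 CPM in EV, 19.8 ± 1.41 in OE, 24.3 ± 0.521 in shScr, 36.7 ± 4.32 in KD4 and 28.2 ± 1.91 in KD6. Cfl2, the cofilin of muscle, which severs actin filaments, had 31.2 ± 1.99 CPM in EV, 29.9 ± 0.724 in OE, 33.1 ± 3.20 in shScr, 44.4 ± 3.68 in KD4 and 38.2 ± 1.07 in KD6. Over the 40 members above, the highest line mean ranged from 5.37 to 349 CPM with a median of 27.6, and the other 3 line means lay within 15% of each other in 22.

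The largest margin of all was below, at 1.90-fold against 1.74-fold above, and 4 members on each side reached 1.5-fold. Pltp, the phospholipid transfer protein of lipoproteins, measured 47.9, 34.8 and 22.3 CPM in EV, 23.3, 36.9 and 23.4 in OE, 12.6, 10.8 and 8.75 in shScr, 3.97, 7.36 and 5.63 in KD4, and 2.76, 2.59 and 3.82 in KD6. The KD4 mean was 16.1% and the KD6 mean 8.7% of EV, and shScr itself lay at 10.7 ± 1.94 CPM, between EV and the hairpin lines. The authors made their gene-level tables separately for EV with OE and for shScr with the hairpin lines. There the Pltp means were 30.1 CPM in EV, 10.3 in shScr, 8.94 in KD4 and 6.79 in KD6. KD4 overlapped shScr in these values, and the rule was not met. Sema4d, a transmembrane semaphorin that signals through plexin-B1, measured 44.1, 38.02 and 33.3 CPM in EV, 41.02, 50.5 and 42.3 in OE, 23.3, 27.00 and 25.3 in shScr, 8.68, 8.06 and 7.89 in KD4, and 12.2, 12.8 and 15.9 in KD6. All 5 lines were ordered the same way as for Smarcd1, and KD4 and KD6 kept 32.6% and 54.1% of the shScr mean. Car12, a membrane-bound carbonic anhydrase, measured 63.00, 50.4 and 72.4 CPM in EV, 49.8, 48.7 and 68.9 in OE, 24.4, 28.5 and 28.1 in shScr, 14.4, 11.6 and 8.41 in KD4, and 14.95, 19.7 and 17.6 in KD6. Its shScr libraries were again intermediate, and KD4 and KD6 kept 42.5% and 64.5% of the shScr mean. Ccnb1ip1, a ubiquitin ligase that lowers cyclin B and acts in meiotic crossing over, measured 5.05, 4.12 and 4.60 CPM in EV, 5.58, 4.23 and 5.07 in OE, 5.35, 6.65 and 4.46 in shScr, 0.973, 0.910 and 1.04 in KD4, and 1.95, 2.71 and 2.64 in KD6. There the 3 other lines did not separate, and KD4 lay below KD6 in every library.

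**Figure D2:**
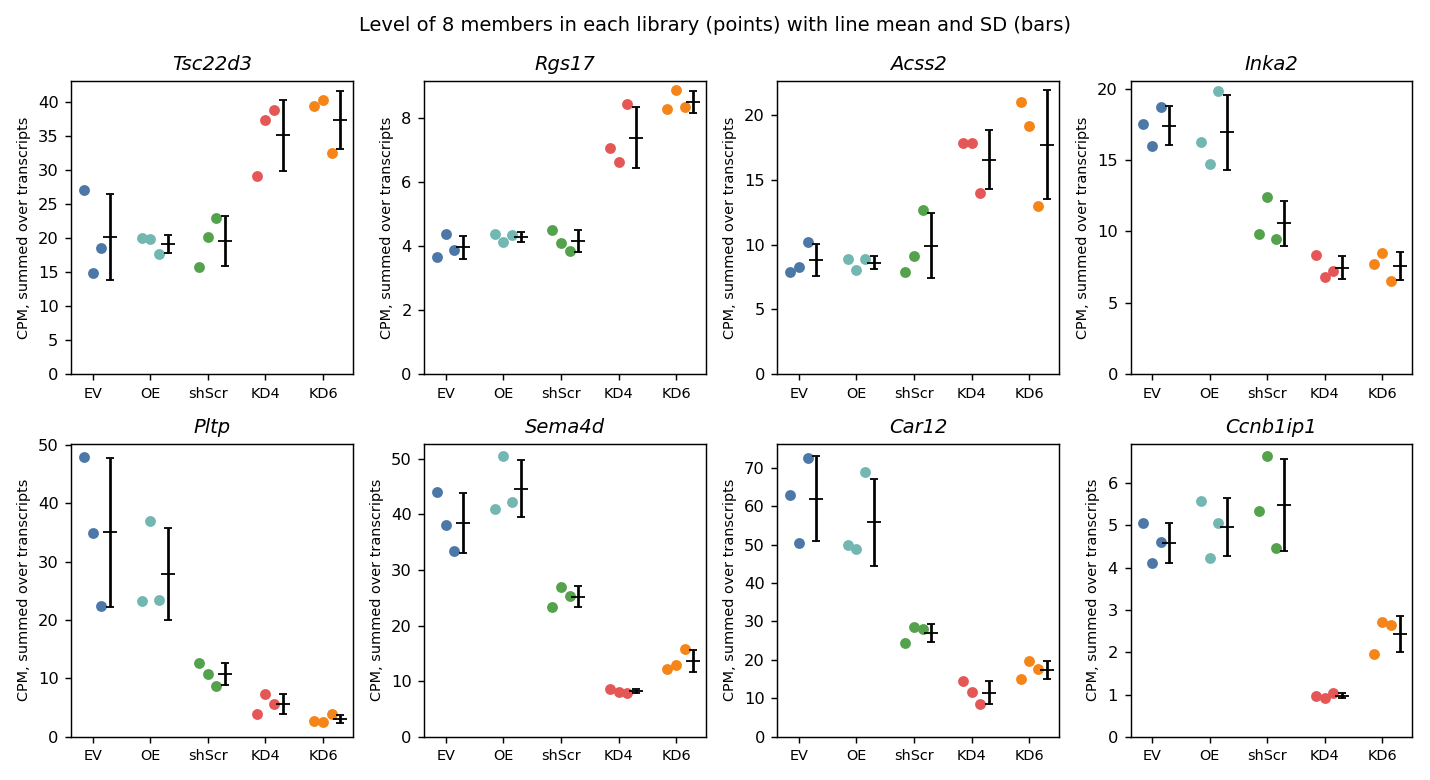
The vertical axis of each panel is the CPM summed over transcripts, points are the 3 libraries of each line and the black bar is the line mean ± SD. In Tsc22d3, Rgs17, Acss2 and Ccnb1ip1 the EV, OE and shScr points overlap, whereas in Inka2, Pltp, Sema4d and Car12 the shScr points lie between those of EV and OE and those of the hairpin lines.

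The other members below were less far apart. Inka2, an inhibitor of the kinase PAK4, had 17.4 ± 1.36 CPM in EV, 16.95 ± 2.64 in OE, 10.6 ± 1.60 in shScr, 7.46 ± 0.799 in KD4 and 7.58 ± 0.978 in KD6. Atg9b, a membrane protein of autophagosome formation, had 46.1 ± 7.12 CPM in EV, 44.8 ± 4.11 in OE, 29.8 ± 3.85 in shScr, 19.4 ± 4.49 in KD4 and 21.5 ± 2.07 in KD6. In both, EV and OE lay above shScr and shScr above the hairpin lines. Padi1, which converts arginine to citrulline in proteins, had 6.83 ± 0.496 CPM in EV, 7.40 ± 0.348 in OE, 7.13 ± 0.783 in shScr, 4.88 ± 0.614 in KD4 and 4.50 ± 0.164 in KD6. Adgrl1, an adhesion G protein-coupled receptor, had 15.7 ± 1.66 CPM in EV, 17.8 ± 2.64 in OE, 19.4 ± 2.51 in shScr, 11.5 ± 0.845 in KD4 and 11.2 ± 1.90 in KD6. Snhg3, a host transcript of small nucleolar RNAs, had 7.83 ± 3.15 CPM in EV, 5.61 ± 0.280 in OE, 5.49 ± 0.553 in shScr, 4.33 ± 0.537 in KD4 and 4.23 ± 0.234 in KD6. Its EV replicate 1, at 11.4 CPM, was far over the next EV library at 6.80. Zfp296, a zinc finger protein, had means of 5.12 CPM in EV, 5.29 in OE, 5.28 in shScr, 3.76 in KD4 and 3.84 in KD6. Zfp518b, also a zinc finger protein, had means of 16.7 CPM in EV, 17.6 in OE, 16.2 in shScr, 14.1 in KD4 and 13.7 in KD6.

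The remaining named members below included mitochondrial, membrane and trafficking proteins and a transcription factor. Tst, the mitochondrial sulfurtransferase rhodanese, had 12.2 ± 2.04 CPM in EV, 12.1 ± 1.42 in OE, 10.4 ± 0.859 in shScr, 7.23 ± 1.13 in KD4 and 7.96 ± 0.463 in KD6. Ppif, cyclophilin D of the permeability transition pore, measured 50.04, 44.2 and 48.4 CPM in EV, 46.4, 43.04 and 46.5 in OE, 37.9, 46.4 and 42.7 in shScr, 22.5, 22.5 and 20.8 in KD4, and 36.5, 36.4 and 35.4 in KD6. KD4 was at 20.8 to 22.5 CPM, while KD6 lay between 35.4 and 36.5, only just under the lowest shScr library at 37.9. Ndor1, a reductase that feeds electrons to cytosolic iron-sulfur cluster assembly, had 30.8 ± 2.40 CPM in EV, 31.5 ± 4.16 in OE, 30.5 ± 1.51 in shScr, 22.98 ± 1.82 in KD4 and 23.2 ± 2.62 in KD6. Znrf3, a ubiquitin ligase that removes Wnt receptors from the surface, had 43.95 ± 2.22 CPM in EV, 46.2 ± 0.955 in OE, 39.98 ± 1.20 in shScr, 31.9 ± 4.70 in KD4 and 32.8 ± 2.997 in KD6. Tnfrsf26, a receptor of the tumour necrosis factor family, had 101 ± 7.83 CPM in EV, 89.9 ± 7.02 in OE, 76.3 ± 5.25 in shScr, 60.3 ± 4.94 in KD4 and 42.5 ± 2.33 in KD6. Sec24a, which selects cargo for COPII vesicles, had 72.8 ± 1.85 CPM in EV, 86.2 ± 1.07 in OE, 80.6 ± 5.67 in shScr, 62.7 ± 7.77 in KD4 and 51.2 ± 7.79 in KD6. Mybl1, a transcription factor of the MYB family, had 30.4 ± 1.47 CPM in EV, 29.6 ± 0.649 in OE, 29.02 ± 2.76 in shScr, 23.3 ± 1.83 in KD4 and 25.1 ± 1.61 in KD6. Over the 26 members below, the highest line mean ranged from 5.29 to 238 CPM with a median of 33.9, and the other 3 means lay within 15% of each other in 13.

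The hairpin lines were then compared with each other, a comparison in which the rule asked for no direction. KD6 and KD4 differed in 12 of the 66 members (18.2%), against 850 of 13142 genes tested (6.47%). KD6 was higher in 6 and lower in 6, against 3.37% and 3.1% of all genes. In 11 of these 12 members KD6 was the hairpin line nearer to the other lines, a share not taken for called genes outside the set. With a minimum mean of 5 CPM the calls were 10 of 60 members and 788 of 10342 genes (7.62%). The rule favours genes with a minimum level and little spread between libraries. A larger share of calls among members is thus partly built in, and nothing is read from it. Ppif was higher in KD6 (log2 difference 0.69 ± 0.07 (SE), adjusted p = 0.000112), as were Ccnb1ip1 (log2 difference 0.79 ± 0.14 (SE), adjusted p = 0.00291) and Sema4d (log2 difference 0.66 ± 0.12 (SE), adjusted p = 0.00354), all below the other lines. Among the members above, KD6 was lower for Atp1b1 (log2 difference -0.42 ± 0.07 (SE), adjusted p = 0.0026) and Ust (log2 difference -0.59 ± 0.12 (SE), adjusted p = 0.00766). The call of Atp1b1 was lost when only the KD4 and KD6 libraries were fitted (adjusted p = 0.0537), and those of Ppif, Ccnb1ip1, Sema4d, Ust and Tnfrsf26 held in every alternative tried. Tnfrsf26 was the exception, lying lower in KD6 and so farther from the other lines (log2 difference -0.49 ± 0.08 (SE), adjusted p = 0.00246). For Pltp all 3 KD6 libraries were below the 3 of KD4 as well, but the difference did not pass the test after adjustment (log2 difference -0.69 ± 0.26 (SE), adjusted p = 0.146, unadjusted p = 0.0183).

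Over all 66 members, 47 (71.2%) had KD4 farther from the other lines than KD6. The same held for 64.6% of the 3196 other genes in which both hairpin means lay beyond the 3 other means, so this leaning was not shown to be particular to the members. Below the other lines, 11 members had line means in the same order as Smarcd1, with EV and OE over shScr, shScr over KD6 and KD6 over KD4, among them Sema4d, Car12, Inka2, Atg9b, Ndor1, Tst, Znrf3, Ppif and Mybl1. Above them, 11 had exactly the reverse order, among them Mylk, Fdft1, Add1, Gbp7 and Cfl2. The shares were 42.3% of the members below and 27.5% of those above, against 32.0% of 1460 and 31.7% of 1736 other genes with both hairpin means on that side, and nothing is read from them. These orders come from the same means as the rule and were not tested.

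**Figure D3:**
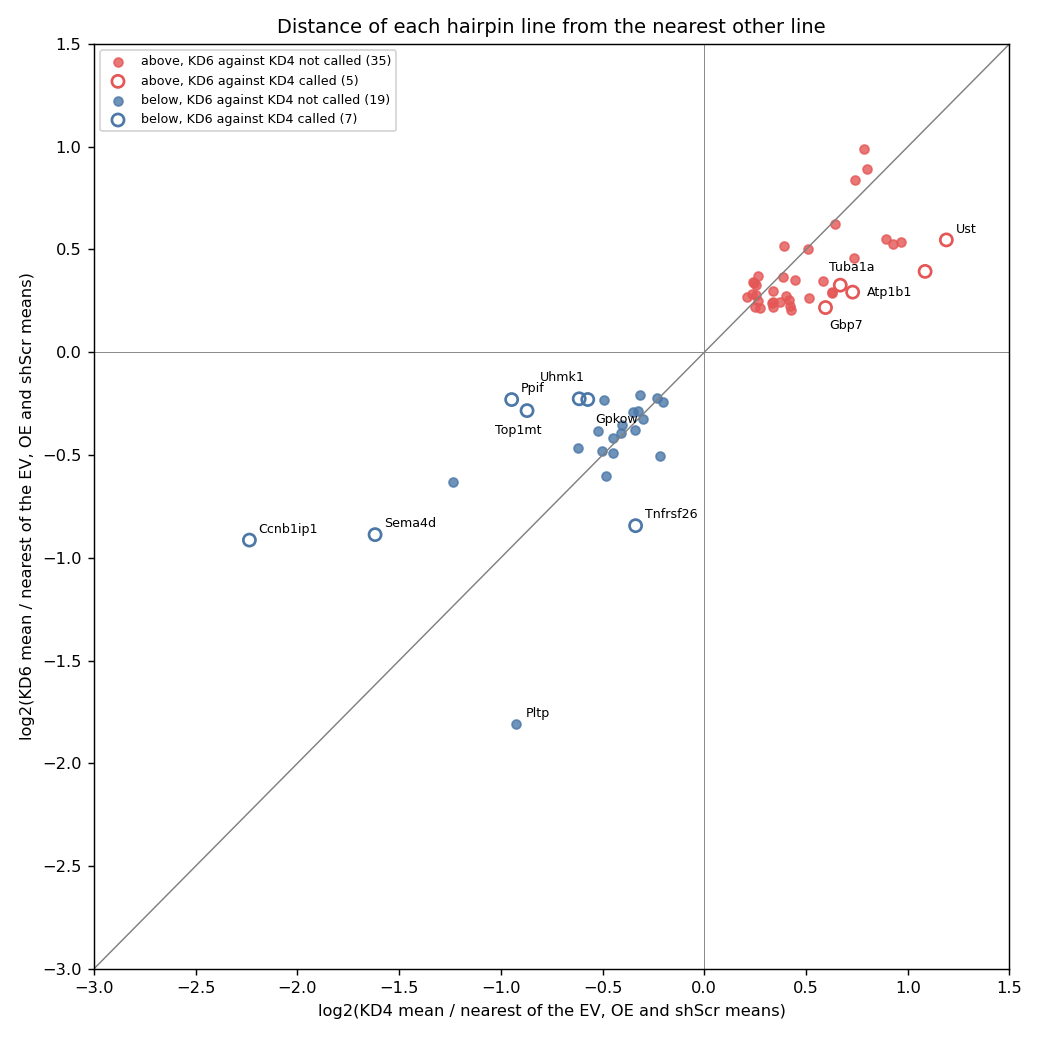
Each point is 1 member, with the log2 ratio of the KD4 mean (horizontal) and of the KD6 mean (vertical) to the nearest of the EV, OE and shScr means, and the diagonal marks equal distance. Open circles are the 12 members in which KD6 and KD4 differed (adjusted p under 0.05), of which 11 lie on the side where KD4 is farther out, Tnfrsf26 is on the other side, and the unlabelled open circle is a gene without a symbol.

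No member passed the test between the overexpression line and its control. OE against EV gave 0 calls by limma among the 66 members and 0 among 13142 genes (0%). At an unadjusted p under 0.05 there were 3 members, 4.55% of the set, against 742 genes, 5.65% of all. The replicate block gave 0 members and 387 genes, and the fit of these 2 lines alone gave 2 members and 1567 genes. Leaving out 1 library gave 0 (without OE replicate 3) to 4 members (without EV replicate 3). The genes then numbered 322 (without EV replicate 1) to 1012 (without KD4 replicate 1). The 3 members were Sec24a (log2 difference 0.24 ± 0.10 (SE), adjusted p = 0.769), Gbp7 (log2 difference -0.20 ± 0.09 (SE), adjusted p = 0.769) and Mylip (log2 difference 0.25 ± 0.11 (SE), adjusted p = 0.769). The OE mean was the higher for Sec24a and Mylip and the lower for Gbp7. Such a result does not show that OE and EV had equal levels of these genes.

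The EV and shScr controls, in contrast, differed in 12 members (18.2%), against 2078 genes or 15.8% of all, so the share among members was near the background. Without shScr replicate 1 the count of members was 7. EV was the higher in 10 (background 9.4%) and the lower in 2 (background 6.41%). Of the 6 called members below the other lines, all had shScr between EV and the hairpin means, namely Car12 (log2 difference 1.16 ± 0.18 (SE), adjusted p = 0.00113), Pltp (log2 difference 1.57 ± 0.26 (SE), adjusted p = 0.00178), Sema4d (log2 difference 0.59 ± 0.12 (SE), adjusted p = 0.00556), Inka2 (log2 difference 0.68), Atg9b (log2 difference 0.61) and Tnfrsf26 (log2 difference 0.39). Of the 6 called above them, EV was the higher in 4, so there EV lay on the side of the hairpin lines. These were Hecw2, a HECT-type ubiquitin ligase (log2 difference 0.40 ± 0.08 (SE), adjusted p = 0.00742), whose call held in every alternative tried, a gene without a symbol, ENSMUSG00000093661 (log2 difference 0.35, lost in 5 of 20 alternatives), Trim54 (log2 difference 0.26, lost in 10 of 21) and Srd5a1 (log2 difference 0.27, lost in 13 of 20). The nearest other line was shScr for 30 members, OE for 20 and EV for 16. Vector, drug and passage history separate EV from shScr as well as the hairpin sequence, and these cannot be told apart.

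Of the members, 3 belong to a list of 38 genes of cholesterol and fatty acid synthesis, of which 35 were measured. That is 8.57% of the measured genes, against 0.502% of all genes. These pathways are driven by the SREBP transcription factors, which are released from the endoplasmic reticulum when sterols are low. Members such as Fdft1 and Acss2 included, 20 of the 35 genes had both hairpin means above the 3 other means, against 13.5% of all genes, and 0 had both below. The median log2 ratio of the hairpin mean to the mean of the other lines was 0.36 in the list and -0.0015 over all genes. Insig1, which holds SREBP back in the endoplasmic reticulum, had 23.4 CPM in EV, 25.2 in OE, 55.2 in shScr, 64.8 in KD4 and 71.4 in KD6. Fdps, farnesyl diphosphate synthase, had 23.7 CPM in EV, 24.3 in OE, 47.8 in shScr, 60.3 in KD4 and 62.8 in KD6. Cyp51, a sterol demethylase, had 36.7 CPM in EV, 36.1 in OE, 77.4 in shScr, 99.5 in KD4 and 94.7 in KD6. None of these passed the rule, and in each shScr lay closer to the hairpin lines than to EV.

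The EV and shScr controls differed within this list too. EV was lower than shScr in 14 of the 35 genes, against 6.41% of all genes, and higher in 0. These included Insig1 (log2 difference -1.22, adjusted p = 0.0014), Cyp51 (log2 difference -1.07, adjusted p = 0.00135) and Fdps (log2 difference -0.99, adjusted p = 0.0172). Acss2 and Fdft1 did not pass in that comparison (adjusted p = 0.606 and 0.401). KD6 was higher than KD4 in 2 of the 35 genes, Acaca and Elovl5, and lower in 0, against 3.37% and 3.1% of all genes. The list was chosen with earlier results of these data known, so its counts are a description.

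**Figure D4:**
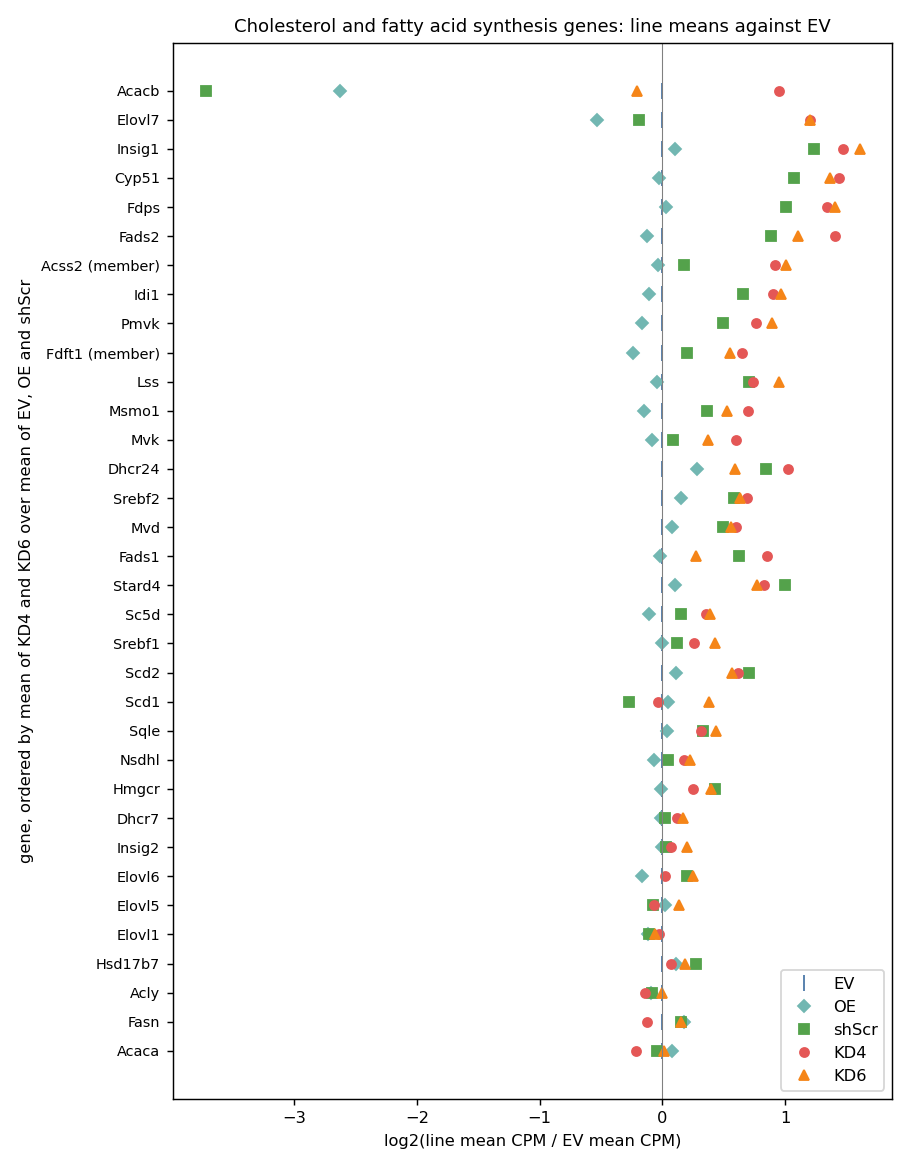
The horizontal axis is log2 of each line mean over the EV mean for 34 of the 35 measured genes of cholesterol and fatty acid synthesis, ordered by the ratio of the hairpin lines to the other lines. KD4 and KD6 lie right of EV and OE in most of the upper rows, with the shScr squares between them for Insig1, Cyp51 and Fdps.

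Most other gene lists held no member. The set held only 0.502% of all genes, so lists of these sizes could readily hold 0, and nothing is read from these counts. The remaining listed members were Sema4d, the only one of 16 measured semaphorins, plexins and neuropilins, Car12 of 4 carbonic anhydrases and of 33 genes of glycolysis and hypoxia, Cd24a of 20 integrins and adhesion molecules, Mylk and Add1 of 43 actin and membrane skeleton genes, Znrf3 of 21 Wnt pathway genes and Atp1b1 of 24 ion channels and pumps. By name, 2 of 283 Zfp genes, 1 of 140 Usp, Trim or Rnf genes and 1 of 40 G protein and receptor genes were members. There were 0 among 25 subunits of BAF, PBAF and GBAF complexes, 41 cell cycle genes, 32 interferon response genes and 44 matrix genes. The same held for 39 ERK feedback and immediate early genes, 162 ribosomal protein genes and 166 solute carriers. Gbp7 was not on the interferon response list. Some lists without a member had a larger share of genes with both hairpin means on 1 side than all genes did. Of 28 p53 targets 13 had both hairpin means below the other lines and 1 above, against 11.3% and 13.5% of all genes. In these 28, EV was higher than shScr in 11 and lower in 1, against 9.4% and 6.41% of all genes. Of 13 mitochondrially encoded genes 6 had both below and 0 above, and EV was higher than shScr in 7 and lower in 0.

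The members were also looked up in the authors' gene-level tables, which were made separately for OE with EV and for KD with shScr, so levels set across them are given with that limit. For Padi1, which has 1 listed transcript, the gene values and the transcript sums both gave 6.83 CPM in EV and 7.13 in shScr. All 66 were listed, and in 58 the 6 hairpin libraries separated from shScr within the 1 table that holds both. Over both, 55 separated from all 9 other libraries and 51 met the full rule. Several leading members were among those that did not. Pltp had 8.32 to 10.05 CPM in KD4 there, overlapping 9.64 to 11.3 in shScr, and 6.57 to 6.92 in KD6. Acss2 had 14.9 to 23.2 CPM in the hairpin libraries and 10.9 to 17.7 in shScr. Fdft1 had 37.1 to 60.8 and 37.4 to 39.8. Mybl1 overlapped shScr too, while Tsc22d3, Adgrl1 and Sec24a separated from shScr but not from all of EV and OE. Sema4d, Car12, Rgs17 and Ccnb1ip1 separated from all 9 libraries in the gene tables as in the transcript sums.

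The difference between the tables touches the transcripts that were listed. The sum of the listed transcripts came within 10% of the gene value in 53 members and under 0.9 of it in 13, the lowest being Pltp at 0.747. Of the members, 26 had 1 listed transcript and 40 had 2 or more, 114 in all, of which 25 separated the hairpin libraries from the other 9 in the direction of the gene. Every listed transcript separated in 3 of these 40 members, exactly 1 in 17, and in 19 members no single transcript did so although the sum did. Both transcripts of Car12 separated, at 26.2, 22.04, 9.17, 2.97 and 3.90 CPM for ENSMUST00000071889 and 35.8, 33.8, 17.8, 8.51 and 13.5 for ENSMUST00000085420 (means of EV, OE, shScr, KD4 and KD6 in that order). Both of Rgs17 did as well. For Pltp, ENSMUST00000059954 had a mean of 9.33 CPM in shScr, 3.65 in KD4 and 1.19 in KD6, while ENSMUST00000109316 stood at 1.40, 2.01 and 1.86. In Tsc22d3 the transcript ENSMUST00000055738 carried 91.7% of the difference between hairpin and other lines. None of the 3 listed Sema4d transcripts separated on its own, although ENSMUST00000021900 was at 13.1 CPM in shScr and 5.77 and 7.27 in KD4 and KD6.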

How the data were processed

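The authors deposited CPM values, that is, read counts scaled to the library total, in 1 transcript table covering all 15 libraries and in 2 gene tables, 1 of OE with EV and 1 of KD with shScr. STAR 2.7.8a and mm39 appear in the submitters' processing notes, but Tophat and an older build in the study's methods, and for that reason no coordinate was read from the files. The lowest geometric mean of a listed transcript was 1.00 CPM, so low transcripts had been removed before deposition. Library sums ran from 854736 to 902115 CPM, no whole-read steps were found, and the depth is therefore unknown. There were 15 further columns of per-sample values that match no sample used here, and they were not analysed here.

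Transcripts were summed per gene (30220 transcripts, 13142 genes, 87.6% with a symbol), and the rule was applied to those sums. The log2(CPM + 1) levels of all 15 libraries entered 1 limma fit (version 3.58.1, R 4.3.3) of 5 lines with a variance trend. Two-sided p values were adjusted over all 13142 genes (Benjamini-Hochberg), a call being an adjusted p under 0.05. The analysis software of the study was not at hand, so limma took its place. The fit and the rule were tried on simulated data with planted changes. Apart from these changes, each simulated gene had the same mean in all lines. Such data cannot show how many genes meet the rule through other differences between lines. Replicates were separate passages of 1 line, so p values measure the spread between passages and not between independently made lines.

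Named genes were the 12 members above and 12 below with the largest margins, members on a gene list, the members with the smallest p in each tested comparison (5 for KD6 with KD4, 3 for each of the others), the 3 on each side of the fold limit, and Smarcd1, without genes that lack a symbol or are predicted. Values of 1 named gene are not reported here, although it is kept in the counts. Tuba1a, Gbp7, Top1mt, Gpkow, Uhmk1, Inka2, Atg9b, Hecw2, Trim54 and Srd5a1 are also given, in the report or among the results listed for a closer look, as called members, and Insig1, Fdps, Cyp51, Acaca and Elovl5, which are no members, were named after their values were seen. The 66 members, the gene lists and the promoters shown were chosen with earlier results of these data known. Alternatives were other minimum levels and folds, a pseudocount of 0.1, quantile and median of ratios scaling, a minimum mean of 5 CPM, the joined gene tables, a replicate block, the 2 compared lines alone, and each library left out. The plots used Python 3.11.15 with matplotlib 3.10.9.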

Additional observations from a re-analysis of the deposited data

Results flagged for a closer look

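In 12 members the hairpin lines KD4 and KD6, which share the design of a Smarcd1 hairpin, differed from each other (limma, adjusted p under 0.05 over all genes). The values are log2 differences of KD6 minus KD4 on the log2(CPM + 1) scale, from 3 libraries of each line.

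Of the members above the other lines, KD6 was lower in 5. These were Ust (-0.59), Atp1b1 (-0.42), Gbp7 (-0.36), Tuba1a, an alpha-tubulin (-0.34), and ENSMUSG00000093661, a gene without a symbol (-0.60). Of the members below, KD6 was higher in 6, which were Ccnb1ip1 (0.79), Ppif (0.69), Sema4d (0.66), Top1mt, the mitochondrial topoisomerase I (0.53), Uhmk1, a kinase with an RNA-binding domain (0.39), and Gpkow, a protein of the spliceosome (0.33). Tnfrsf26, also below, was lower in KD6 (-0.49). Smarcd1 was higher in KD6 by 0.64, and whether the hairpin lines differ for that or another reason was not tested.

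The calls of Gbp7, Gpkow, Top1mt, Tuba1a, Uhmk1 and Atp1b1 were lost with these 2 lines alone (adjusted p from 0.0537 for Atp1b1 to 0.159 for Gbp7), and those of Gbp7 (adjusted p = 0.067) and Gpkow (adjusted p = 0.0622) also with a replicate block. Without KD6 replicate 2 the calls of Tuba1a, Gbp7, Top1mt and Gpkow were lost, without KD6 replicate 3 those of Tuba1a, Gbp7 and Top1mt, without KD4 replicate 2 those of Gbp7, Gpkow and Uhmk1, and without KD4 replicate 3 those of Gbp7 and Top1mt. The other 6 held in every alternative tried.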

How the results depend on the processing

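The number of genes that met the rule was 66 with the settings reported, 23 at a margin of at least 1.3-fold and 8 at 1.5-fold. It was 77 at a minimum of 2 CPM, 52 at 10 CPM, 69 after quantile normalization (52 of them among the 66), 66 after median of ratios scaling (61 shared) and 84 in the joined gene tables (51 shared). Leaving out 1 library at a time gave 64 to 98 genes, most without KD6 replicate 3, and 53 to 66 of the original members, fewest without KD6 replicate 1.

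Of the tested comparisons, KD6 against KD4 called 12 members, 6 with these 2 lines alone (where fewer libraries estimate the spread) and 8 to 14 with 1 library left out. EV against shScr called 12, and 7 to 13 with 1 library left out, with 7 without shScr replicate 1. OE against EV called 0 members in all alternatives tried. Smarcd1 was higher in KD6 than in KD4 by a log2 difference of 0.64, and by 0.57 to 0.70 with 1 library left out. Over all genes, KD6 against KD4 gave 850 calls, 232 with 2 lines alone, 502 without KD6 replicate 2 and 569 without KD4 replicate 2, and EV against shScr gave 2078, 971 without EV replicate 1, 1222 without EV replicate 3, 1003 without shScr replicate 1, 1560 without shScr replicate 2 and 1249 without shScr replicate 3; in the other cases, apart from the replicate block, the counts stayed within 1.5 times. Of 24 calls on single members, 13 held in every alternative and none changed direction, and the cause of the others was not tested. A library left out leaves 2 in its line.

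The deviations of same-numbered libraries from their line means correlated at -0.44 to 0.16. Their median was -0.21, against 0.07 for the other pairs of libraries. No positive pairing by replicate number was seen, which does not show that libraries were handled apart. With a replicate block, 10 members were called for KD6 against KD4 (455 genes in all), 8 for EV against shScr (990 genes) and 0 for OE against EV, and the Smarcd1 difference was 0.64 (adjusted p = 0.00607).

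The depth of the libraries is unknown, so no counting error was given for members near the minimum of 5 CPM.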

Other observations

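The members were scattered over the genome. Of the 66, 64 were placed by symbol among 11273 measured genes, on 19 chromosomes with at most 7 on any one. None were next to each other. The closest pairs were Dtnbp1, a subunit of the lysosome biogenesis complex BLOC-1, with Mylip, 1 measured gene apart, and Atp1b1 with Dcaf6, 3 measured genes apart, and both genes of each pair lay above the other lines. These pairs were named after the positions were seen.

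A further 16 genes separated all 6 hairpin libraries from the other 9 but had no line mean of 5 CPM. One of them was Elovl7, an elongase of long-chain fatty acids, with 0.846 CPM in EV, 0.586 in OE, 0.744 in shScr, 1.95 in KD4 and 1.95 in KD6. Of 48 histone genes, 20 had both hairpin means above the other lines and 1 below, against 13.5% and 11.3% of all genes. Members among them were 0, against 0.502% of all genes.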
